A study of Rattus norvegicus with 12 samples.

Results

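Cholesterol synthesis genes were followed through the bronchial wall of rats with bronchial fibrosis induced by 2,3-pentanedione (PD), a component of artificial butter flavoring. The members were 8 genes: the regulators Srebf2 and Insig1 and the enzymes Hmgcs1, Idi1, Fdps, Fdft1, Sqle and Cyp51. They were found by gene symbol in the annotation of the array, and each gene was represented by its probe set of highest mean log2 signal over all 12 arrays. Of the 8 members, 7 were measured, by 11 probe sets, among 14217 genes with a symbol; Hmgcs1, the synthase that forms the precursor of mevalonate, was not paired with a probe set and was not analysed here. The study compared fibrotic bronchi of PD-exposed rats (3 arrays, replicates 3, 7 and 9), non-fibrotic bronchi of PD-exposed rats (3 arrays, replicates 4, 8 and 10) and bronchi of air-exposed control rats (6 arrays, replicates 1 to 6). All rats were male Wistar Han rats, 6 to 7 weeks old on arrival, and no allele or further agent is named; exposure was by inhalation, at 200 ppm PD or to filtered air, for 6 h a day on 12 days over 2 weeks. Specimens were cut by laser from frozen lung sections: fibrotic specimens were fibrotic plaques or polyps with the wall beneath them, while non-fibrotic and control specimens held a bronchial epithelium and its wall. Some rats gave both fibrotic and non-fibrotic specimens, but no label says which, so the p-values measure the spread between arrays only.

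Cells make cholesterol from acetyl-CoA through mevalonate, which is built into isoprenoids, squalene, lanosterol and finally cholesterol. The SREBP-2 transcription factor, encoded by Srebf2, switches on most genes of this pathway when membranes are short of sterol, while Insig1 holds the SREBP escort protein in the endoplasmic reticulum when sterol is plentiful. In the lung, cholesterol is a component of surfactant, and macrophages take up and export the cholesterol of surfactant and of dead cells. SREBP-1, encoded by Srebf1, acts mainly on fatty acid genes, and the liver X receptors induce genes of sterol export.

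Promoters are shown for both regulators, Srebf2 and Insig1, and for Cyp51 and Fdps, the members with the largest positive differences between fibrotic and non-fibrotic bronchi. Each sequence is the 250 bases before the RefSeq start of the gene on its own strand, 5′ to 3′, in rat build GRCr8. Capitals mark a CCAAT box (CCAAT, or ATTGG on the other strand) and the letters TCACNCCA, a core of the sterol regulatory element (SRE) to which SREBPs bind.
Srebf2, chr7:115543057-115543306, plus strand: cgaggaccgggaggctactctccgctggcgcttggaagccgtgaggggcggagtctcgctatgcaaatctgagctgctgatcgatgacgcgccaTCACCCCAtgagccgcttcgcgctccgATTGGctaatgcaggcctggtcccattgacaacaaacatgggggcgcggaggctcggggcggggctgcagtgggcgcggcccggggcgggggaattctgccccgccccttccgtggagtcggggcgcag
Insig1, chr4:8057770-8058019, minus strand: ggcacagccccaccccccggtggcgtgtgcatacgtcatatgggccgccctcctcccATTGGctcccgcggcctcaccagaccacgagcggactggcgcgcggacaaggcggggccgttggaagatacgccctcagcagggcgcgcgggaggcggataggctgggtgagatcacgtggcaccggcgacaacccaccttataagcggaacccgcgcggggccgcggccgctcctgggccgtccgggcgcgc
Fdps, chr2:176804817-176805066, minus strand: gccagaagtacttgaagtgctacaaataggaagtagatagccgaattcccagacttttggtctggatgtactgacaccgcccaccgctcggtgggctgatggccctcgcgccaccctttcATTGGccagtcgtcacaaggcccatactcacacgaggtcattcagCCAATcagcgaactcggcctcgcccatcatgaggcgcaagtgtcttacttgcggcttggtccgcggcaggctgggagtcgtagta
Cyp51, chr4:30991443-30991692, plus strand: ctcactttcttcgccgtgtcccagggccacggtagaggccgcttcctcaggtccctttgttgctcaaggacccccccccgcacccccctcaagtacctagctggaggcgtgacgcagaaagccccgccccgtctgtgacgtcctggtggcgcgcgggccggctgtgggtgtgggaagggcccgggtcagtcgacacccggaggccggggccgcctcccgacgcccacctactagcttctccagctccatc
Promoters of 6 members were in the RefSeq table, and both strands of the 300 bases from 250 before to 50 after the start were searched. The longer SRE, TCACNCCAC, which contains the core, had 0 exact matches in the 6 members and a match in 1.12% of 33465 promoters. The core, a motif chosen after the sequences were seen, matched only the Srebf2 promoter among the 6, at position -156, and 3.89% of all promoters. A CCAAT box, which binds the SREBP partner NF-Y, lay in 5 of the 6 promoters, all but Cyp51, against 37.5% of all promoters. A GC box (GGGCGG) lay in 5 of the 6, all but Idi1, against 33.1%, and an E-box (CACGTG) in Insig1 only, against 6.42%. These matches describe letters in a window and were not tested as binding sites. Only exact letters were searched, so 0 matches does not mean that a promoter lacks an SRE of other letters.

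Each value is the log2 of a MAS5 signal, which has no unit, and levels are compared between arrays for one probe set and never between probe sets. The limma fit over all 31042 probe sets called a difference at an adjusted p under 0.01. The median log2 signal of an array was 7.37 to 7.74 in fibrotic, 7.31 to 7.82 in non-fibrotic and 7.43 to 7.67 in control specimens. RNA quality, read as the log2 ratio of the 3′ over the 5′ Gapdh probe set, was 1.59 to 2.11 in fibrotic and 1.95 to 2.35 in non-fibrotic bronchi, against 1.16 to 2.03 in controls 1 and 2 and 0.70 to 0.90 in controls 3 to 6. Labels of controls 3 to 6 also differ in form from those of the other arrays, and 0.451% of probe sets differed between controls 3 to 6 and controls 1 and 2. By the mean log2 signal of the poly-A control probe sets, controls 1 and 2 stood apart instead, at 2.31 and 2.33. All other arrays lay between 8.02 and 11.06 by this measure. Neither set of controls thus matched the exposed arrays in every measure. Tissue composition differed as well: the summed signal of 7 ciliated cell markers was 2210 to 3340 in fibrotic bronchi, 26400 to 39900 in non-fibrotic bronchi and 31500 to 47200 in controls. In such bulk specimens, fewer cells of a type and less RNA per cell cannot be told apart.

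Of the 7 measured cholesterol synthesis genes, 4 overlapped between fibrotic bronchi and controls. All fibrotic arrays lay under all controls for Srebf2 and Fdft1, with means 1.78-fold and 1.89-fold lower, and above all controls for Cyp51, with a mean 1.48-fold higher. None of the 7 members passed the threshold between fibrotic and control bronchi, where 9.39% of all probe sets did. At an unadjusted p under 0.05 there were 3 members, against 31.9% of all probe sets, and at an adjusted p under 0.05 there were 2, Srebf2 and Fdft1, against 17.9%. An ordinary linear model without moderation also gave 0 calls. Arrays of the groups did not overlap for 3 members, 1 higher and 2 lower, against 23.6% of all probe sets. Their median log2 difference was -0.33, with a range of -0.92 to 0.57, beside 0.10 over all genes.

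**Figure D1:**
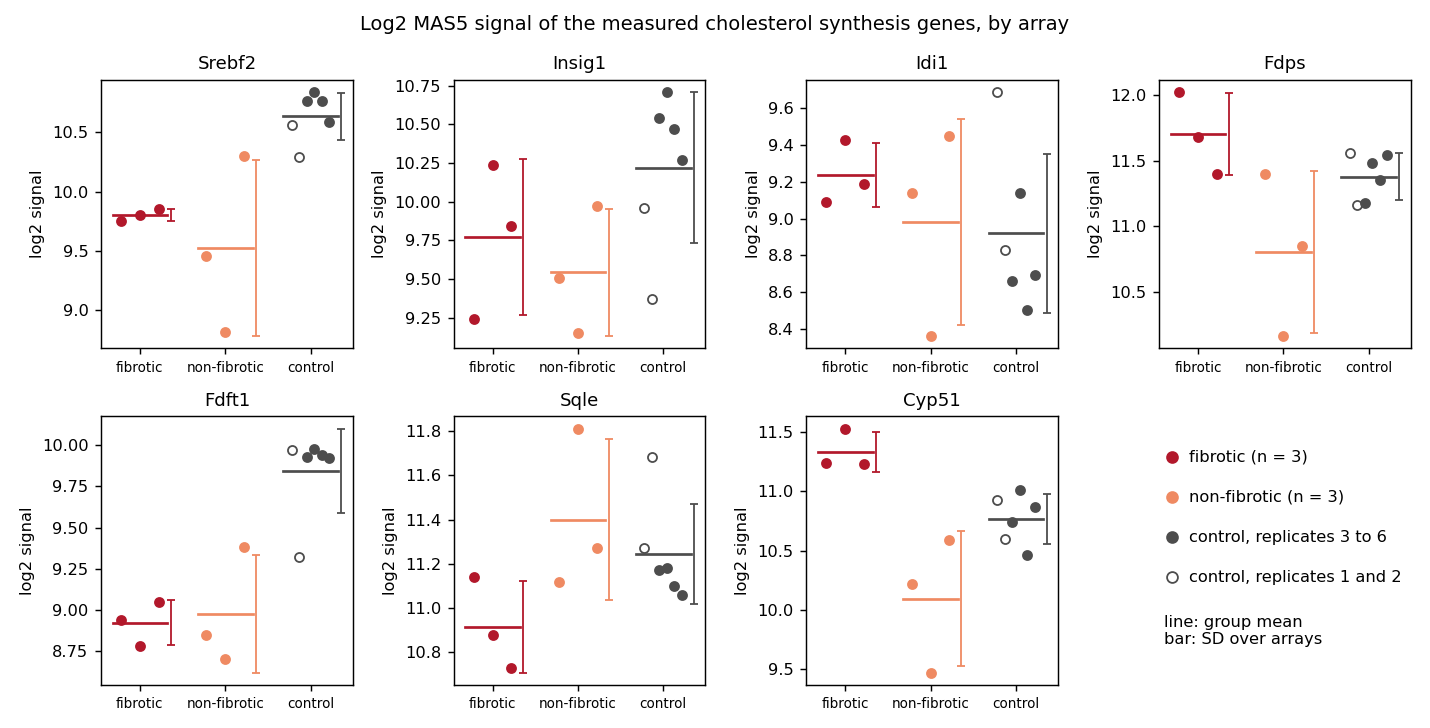
Log2 MAS5 signal (y axis, a scale of its own for each gene) of the 7 measured members on each array of fibrotic, non-fibrotic and control bronchi (x axis), with the group mean as a line and the SD over arrays as a bar; open circles are controls 1 and 2. All 3 fibrotic arrays lie under the 6 controls for Srebf2 and Fdft1 and above them for Cyp51, while non-fibrotic arrays spread most widely for every member except Insig1.

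In non-fibrotic bronchi of exposed rats, 5 of the 7 members had lower means than the controls, and the lowest mean relative to controls was that of Srebf2, 2.15-fold lower. None of the 7 passed the threshold, beside 0.522% of all probe sets, and the model without moderation gave 0 calls. At an unadjusted p under 0.05 there were 5 members, all lower (Srebf2, Insig1, Fdps, Fdft1 and Cyp51), where 26.4% of all probe sets passed and 11.8% did so on the lower side. Srebf2 alone had an adjusted p under 0.05, against 5.83% of all probe sets. For 0 of the 7 members did the arrays stand apart, against 14.6% of all probe sets. The median log2 difference was -0.68, with a range of -1.11 to 0.16, beside 0.00 over all genes. Both comparisons share the 6 controls, so they are not independent of each other.

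The non-fibrotic arrays varied most among themselves, for every member except Insig1. Over the 7 members, the SD of the log2 signal had a median of 0.18 in fibrotic, 0.56 in non-fibrotic and 0.23 in control bronchi. Non-fibrotic replicate 8 was the lowest of its group for 6 of the 7 members and the highest for Sqle. Without that array, the log2 difference between non-fibrotic and control bronchi was -0.75 for Srebf2, -0.36 for Cyp51 and -0.26 for Fdps.

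Between fibrotic and non-fibrotic bronchi of exposed rats, Cyp51 was the 1 member that differed. It was 2.37-fold higher in fibrotic bronchi and passed the threshold, where 3.82% of all probe sets passed and 1.07% did so on the higher side. At an unadjusted p under 0.05 there were 2 members, Cyp51 and Fdps, against 23.2% of all probe sets, and at an adjusted p under 0.05 there was 1, Cyp51, against 9.57%. Cyp51 was also the 1 member whose arrays stood apart, against 23.1%. The median log2 difference of the 7 members was 0.25, with a range of -0.48 to 1.25, beside 0.00 over all genes.

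**Figure D2:**
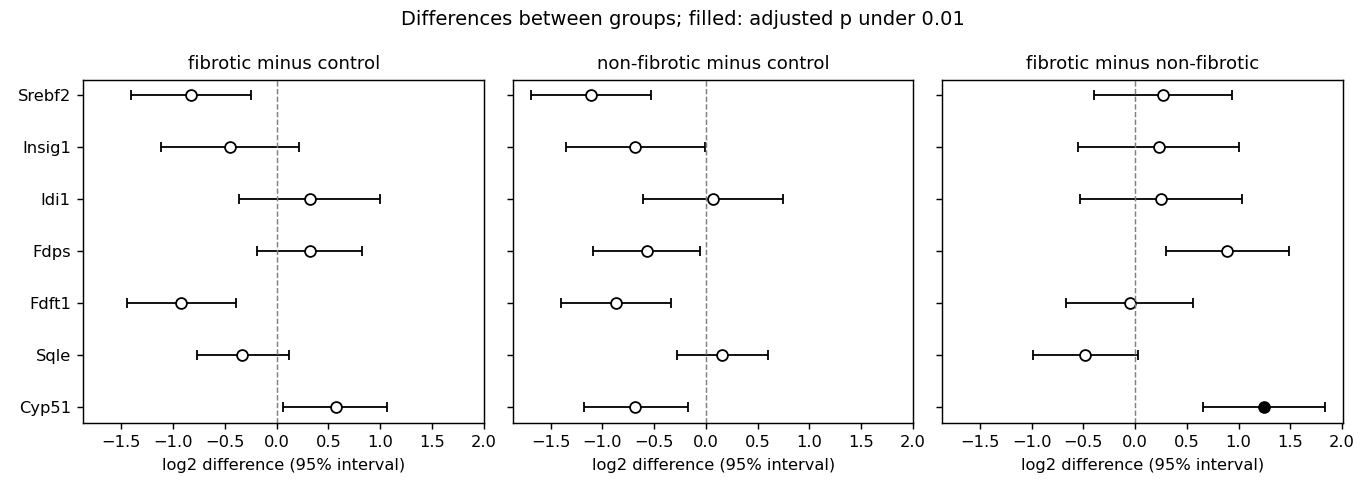
Log2 difference of each member (x axis) with its 95% interval from the limma fit, for fibrotic minus control, non-fibrotic minus control and fibrotic minus non-fibrotic bronchi. The filled point, Cyp51 at 1.25 between fibrotic and non-fibrotic bronchi, is the only one with an adjusted p under 0.01; the intervals of Srebf2 and Fdft1 lie under 0 in both comparisons with controls.

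Srebf2, the master activator of the pathway, had a log2 signal of 9.75, 9.80 and 9.85 in fibrotic bronchi and 9.46, 8.82 and 10.30 in non-fibrotic bronchi, and 10.29 to 10.84 in the controls, with a median of 10.67. All fibrotic arrays lay under all controls, and non-fibrotic replicate 10 alone overlapped the lowest control, replicate 2. The log2 difference was -0.83 (SE 0.27) between fibrotic and control bronchi, with an adjusted p of 0.0452, and -1.11 between non-fibrotic and control bronchi, with an adjusted p of 0.0314. Fibrotic and non-fibrotic bronchi differed by 0.27, with an adjusted p of 0.66. Against controls 1 and 2 only, the difference in fibrotic bronchi was -0.63, with an adjusted p of 0.519.

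Insig1, the sterol-dependent anchor that restrains SREBP processing and is itself an SREBP target, had a log2 signal of 9.24, 10.24 and 9.84 in fibrotic bronchi and 9.51, 9.15 and 9.97 in non-fibrotic bronchi. The controls ran between 9.37 and 10.71, with a median of 10.37, and overlapped both exposed groups. The log2 difference was -0.45, with a 95% interval of -1.12 to 0.22, in fibrotic bronchi, and -0.68, with an interval of -1.35 to -0.01, in non-fibrotic bronchi, both relative to controls. Controls 1 and 2, at 9.96 and 9.37, were the lowest of the 6, and against them alone the fibrotic difference was 0.11.

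Idi1, the isomerase that readies isoprenoid units for condensation, measured 9.09, 9.43 and 9.19 on the log2 scale in fibrotic bronchi and 9.14, 8.36 and 9.45 in non-fibrotic bronchi. Controls ran between 8.50 and 9.69, with a median of 8.76. All 3 groups overlapped, and the fibrotic difference from controls was 0.32, with an interval of -0.36 to 1.00.

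Fdps, farnesyl diphosphate synthase, which supplies both sterols and the lipid anchors of proteins, measured 12.02, 11.68 and 11.40 in fibrotic bronchi and 11.40, 10.17 and 10.85 in non-fibrotic bronchi, on the log2 scale. Controls lay between 11.16 and 11.56, with a median of 11.42. The lowest fibrotic and the highest non-fibrotic array were both at 11.40, and both groups overlapped the controls. The log2 difference between fibrotic and non-fibrotic bronchi was 0.89 (SE 0.28), with an adjusted p of 0.0555; without non-fibrotic replicate 4 it was 1.19, with an adjusted p of 0.00829. Relative to controls, fibrotic bronchi were 0.32 higher (adjusted p 0.39) and non-fibrotic bronchi 0.57 lower (log2 difference -0.57, adjusted p 0.146).

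Fdft1, squalene synthase, the first enzyme committed to sterols, measured 8.94, 8.78 and 9.05 in fibrotic bronchi and 8.85, 8.70 and 9.38 in non-fibrotic bronchi, on the log2 scale. In controls 1 to 6 it measured 9.97, 9.32, 9.93, 9.98, 9.94 and 9.92. Control 2 was far under the other 5 controls, all fibrotic arrays lay under all controls, and non-fibrotic replicate 10 overlapped control 2. The log2 difference was -0.92 (SE 0.25) in fibrotic bronchi, with an adjusted p of 0.0177, and -0.87 in non-fibrotic bronchi, with an adjusted p of 0.0524, both relative to controls. Without control 2 the fibrotic difference was -1.03, with an adjusted p of 0.00709, and against controls 1 and 2 only it was -0.72, with an adjusted p of 0.434. Fibrotic and non-fibrotic bronchi differed by -0.05, with an adjusted p of 0.94.

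Sqle, squalene epoxidase, a rate-limiting step after squalene, measured 11.14, 10.88 and 10.73 in fibrotic bronchi and 11.12, 11.81 and 11.27 in non-fibrotic bronchi, on the log2 scale. Controls lay between 11.06 and 11.68, with a median of 11.17, and the highest of them was control 2. Fibrotic replicates 7 and 9 lay under all controls and replicate 3 among them. The log2 difference was -0.33, with a 95% interval of -0.77 to 0.12, between fibrotic and control bronchi, and -0.48, with an interval of -0.99 to 0.03, between fibrotic and non-fibrotic bronchi.

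Cyp51, the demethylase that acts on lanosterol, measured 11.24, 11.53 and 11.23 in fibrotic bronchi and 10.22, 9.47 and 10.59 in non-fibrotic bronchi, on the log2 scale. Controls lay between 10.46 and 11.01, with a median of 10.80. Every fibrotic array was above every other array, while non-fibrotic replicates 4 and 8 were below all controls and replicate 10 was among them. The log2 difference between fibrotic and non-fibrotic bronchi was 1.25 (SE 0.27), with an adjusted p of 0.00945. This call was lost in 19 of 24 alternatives, with an adjusted p of 0.277 at most. Among them were the fits without any 1 control, without any 1 fibrotic array, and without non-fibrotic replicate 4 or 8, and without non-fibrotic replicate 8 the difference was 0.93, with an adjusted p of 0.038. Relative to controls, the difference was 0.57 in fibrotic bronchi (adjusted p 0.112) and -0.68 in non-fibrotic bronchi (adjusted p 0.0914).

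A further probe set exists for 4 of the genes, and for Srebf2 and Idi1 it ran the other way. The second Srebf2 probe set measured 6.79, 6.74 and 7.05 in fibrotic bronchi and 5.88, 4.80 and 7.80 in non-fibrotic bronchi, against 4.81 to 5.96 in the controls, on the log2 scale. All 6 controls lay under the background level of 6.52, so fibrotic bronchi were at least 1.27-fold higher by this probe set. The log2 difference of the values as measured was 1.38, with an adjusted p of 0.132. The second Idi1 probe set measured 8.30, 8.22 and 7.37 in fibrotic bronchi and 8.42, 8.53 and 8.65 in non-fibrotic bronchi, against 7.01 to 9.28 in controls, and the fibrotic difference from controls was -0.69 (adjusted p 0.309). The second probe sets of Fdft1 and Cyp51 had the same direction as the first, at -0.64 (adjusted p 0.214) and 0.10 (adjusted p 0.845) between fibrotic and control bronchi. Between fibrotic and non-fibrotic bronchi the second Cyp51 probe set differed by 0.64 (adjusted p 0.277). Where in the transcripts the probe sets lie was not analysed here.

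**Figure D3:**
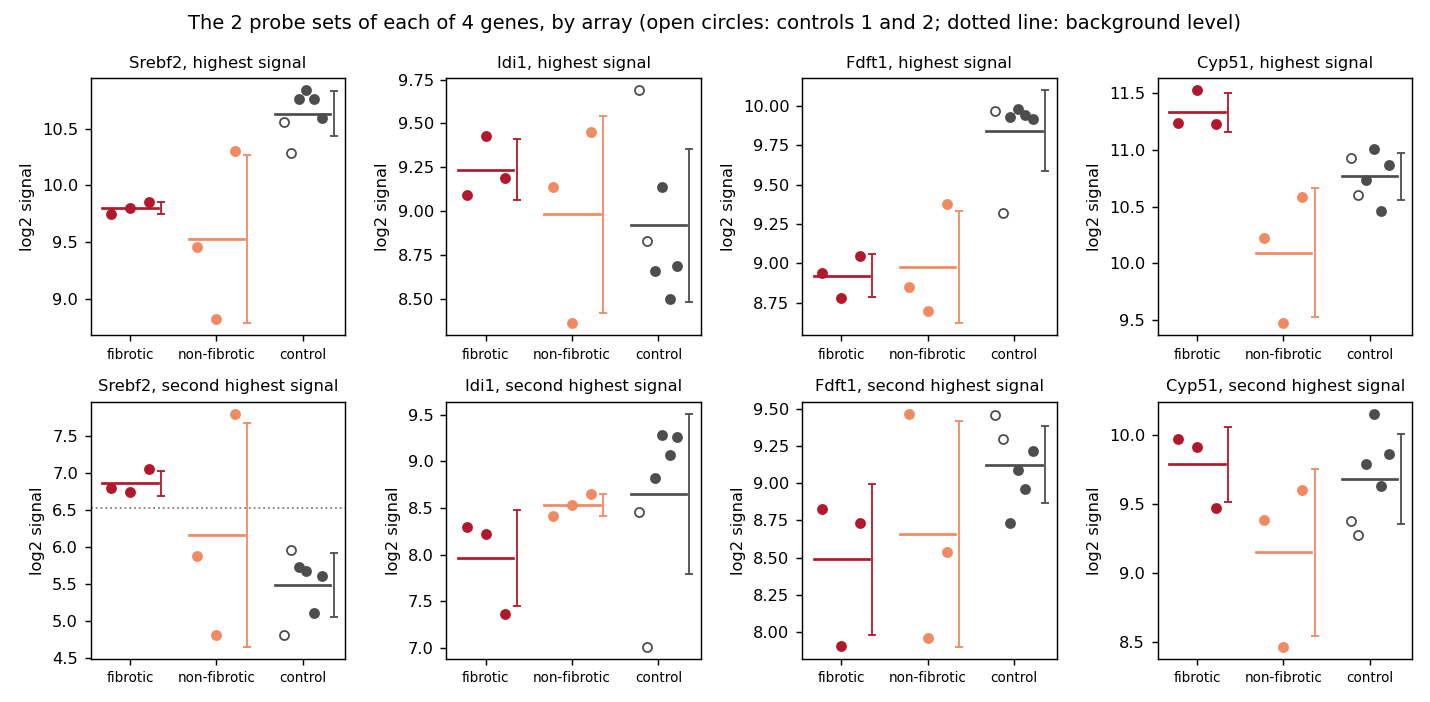
Log2 MAS5 signal (y axis, a scale of its own in each panel) by array in fibrotic, non-fibrotic and control bronchi (x axis) for the probe set of highest signal (top) and of second highest signal (bottom) of Srebf2, Idi1, Fdft1 and Cyp51; lines are group means, bars the SD and open circles controls 1 and 2. For Srebf2 the fibrotic arrays lie under the controls in the top panel and above them in the bottom panel, where all controls are under the dotted background level of 6.52.

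Across the 12 arrays, 14 of 21 pairs of members were positively correlated, as a description of arrays that share groups, RNA quality and tissue makeup. Srebf2 and Fdft1 were the most alike (Pearson r 0.93, and 0.82 after group means were removed), followed by Fdps and Cyp51 (0.83, and 0.60 within groups). Srebf2 and Insig1 had an r of 0.79, and 0.68 within groups. Sqle ran against the others, with all 6 of its pairs negative, between -0.74 and -0.09, whereas 14 of the 15 pairs without it were positive. The genes of all others most like the mean profile of the members were Uqcc2 (r 0.92), Slco3a1 (0.92), Ptpra (0.91), C17h7orf25 (0.90) and Mybpc2 (0.90). Those most like Srebf2 were Mybpc2, Fam120c and Nap1l2 (0.95 each), and those most like Insig1 were Zfyve21 (0.95), Rhbdd3 (0.95) and Samm50 (0.93), all over 12 arrays.

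The listed enzymes of cholesterol synthesis outside the members also gave 0 calls between fibrotic and control bronchi, beside 9.39% of all probe sets. Of the mevalonate enzymes, 4 of 5 were measured, and 0 had an unadjusted p under 0.05, with a median log2 difference of -0.07. Of the enzymes from squalene to cholesterol, 9 of 10 were measured and 0 passed, 2 with an unadjusted p under 0.05 (both higher), beside 31.9% of all probe sets, with a median of -0.06. The model without moderation also called 0 in both lists. Between fibrotic and non-fibrotic bronchi 8 of these 9 had positive differences, with a median of 0.65 and 0 calls; the largest was 1.43 (adjusted p 0.0345) for Dhcr7, the reductase of the last step. In the isoprenoid branch 9 of 10 genes were measured and 1 rose, beside 2.99% of all probe sets called higher and 9.39% called in either direction. This was Rabggtb, a subunit of the enzyme that attaches lipid anchors to Rab proteins, by 0.70 on the log2 scale (adjusted p 0.00968). Its call was lost in 11 alternatives.

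Of the genes of sterol sensing, Srebf1 fell in fibrotic bronchi, and 0 passed the threshold in non-fibrotic bronchi, also without moderation. All 5 genes of SREBP sensing and processing had negative differences from controls in fibrotic bronchi (median -0.64) and in non-fibrotic bronchi (median -0.71). At an unadjusted p under 0.05 there were 2 in fibrotic bronchi, beside 31.9% of all probe sets, and 3 in non-fibrotic bronchi, beside 26.4%. The 1 call stood beside 6.40% of all probe sets called lower in fibrotic bronchi. Srebf1 measured 5.85, 5.81 and 5.68 in fibrotic bronchi, all under the background level, and 6.15, 8.02 and 7.54 in non-fibrotic bronchi, against 8.13 to 8.59 in controls on the log2 scale. By this probe set Srebf1 thus fell at least 3.6-fold in fibrotic bronchi relative to controls. The adjusted p was 3.6e-04 for the values as measured and 0.00211 with values under background set to that level. With the mean of the Srebf1 probe sets the log2 difference was -0.97 (adjusted p 0.153). Its second probe set differed by 0.65 in the other direction, and against controls 1 and 2 only the adjusted p was 0.0645. Among 15 SREBP-driven fatty acid genes, 2 fell in fibrotic bronchi, beside 6.40% of all probe sets called lower. They were Fads2, a fatty acid desaturase, by 1.88 (adjusted p 3.8e-04) and Me1, malic enzyme, by 1.38 (adjusted p 0.0023), on the log2 scale. The median of the 15 was 0.03. Of the 15, 8 had positive and 7 negative differences, and the largest positive one was 2.26 (adjusted p 0.0102) for Scd, not called. Against controls 1 and 2 only both calls were lost (adjusted p 0.0333 for Fads2 and 0.0636 for Me1). That of Me1 was also lost without fibrotic replicate 9 (adjusted p 0.0198), without moderation (0.0127), without the intensity trend (0.0136) and after median centring (0.0165).

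Sterol export and storage genes rose in fibrotic bronchi: Abca1, Abcg1, Apoe and Soat1. Of 9 genes for efflux, esterification and oxysterols, 4 passed the threshold, all higher, against 2.99% of all probe sets called higher, and the median log2 difference of the 9 was 1.21. Without moderation the count was 1, Soat1. The sterol pump Abca1 measured 10.57, 9.86 and 10.41 in fibrotic bronchi and 8.58, 6.30 and 7.48 in non-fibrotic bronchi, against 7.10 to 9.20 in controls on the log2 scale, a fibrotic rise of 2.51 (adjusted p 0.00248). Soat1, which esterifies cholesterol for storage, measured 10.54, 10.57 and 10.10 in fibrotic bronchi and 9.21, 8.68 and 8.70 in non-fibrotic bronchi, against 8.09 to 9.03 in controls, a rise of 1.78 (adjusted p 3.8e-04). For both genes every fibrotic array was above every other array. The pump Abcg1 rose by 2.20 (adjusted p 0.00224) and the lipid carrier Apoe by 2.40 (adjusted p 0.00259), on the log2 scale. By its second probe set Abcg1 differed by 1.47 (adjusted p 0.0789), and by the mean of its probe sets by 1.57 (adjusted p 0.02), neither called. Abca1, Apoe and Soat1 kept their calls in both of these settings. With controls 1 and 2 only the calls of Abca1, Abcg1 and Apoe were lost (adjusted p 0.156, 0.142 and 0.131), as they were without fibrotic replicate 3 (adjusted p 0.0195, 0.0244 and 0.019). Abca1 and Apoe also lost theirs without fibrotic replicate 9, and Apoe without replicate 7 (adjusted p 0.0111), while Soat1 kept its call relative to controls in every alternative. Setting values under background to that level also ended the calls of Abca1 (adjusted p 0.0113), Abcg1 (0.0103) and Apoe (0.0203), as did leaving out moderation (0.0203, 0.0157 and 0.0293).

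No uptake gene passed the threshold in fibrotic bronchi relative to controls, beside 9.39% of all probe sets. All 6 measured genes of cholesterol uptake and transport, of 9 listed, had positive differences between fibrotic and control bronchi, with a median of 0.62 and 0 calls, also without moderation, and 3 with an unadjusted p under 0.05, beside 31.9% of all probe sets. Between fibrotic and non-fibrotic bronchi 1 passed, beside 3.82% of all probe sets and 1.07% on the higher side. This was Lipa, the lysosomal lipase that frees cholesterol from its esters, higher by 2.45 on the log2 scale (adjusted p 0.00686). It measured 11.62, 10.77 and 10.58 in fibrotic against 9.81, 6.95 and 8.86 in non-fibrotic bronchi. Without non-fibrotic replicate 8 the difference was 1.65 (adjusted p 0.013), and without moderation the adjusted p was 0.0517. In non-fibrotic bronchi 0 of the 57 genes of the 7 pathway lists passed the threshold relative to controls, beside 0.522% of all probe sets. The model without moderation also gave 0 calls. Of the 57, 9 had an unadjusted p under 0.05, 3 higher and 6 lower, beside 26.4% of all probe sets at that level.

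**Figure D4:**
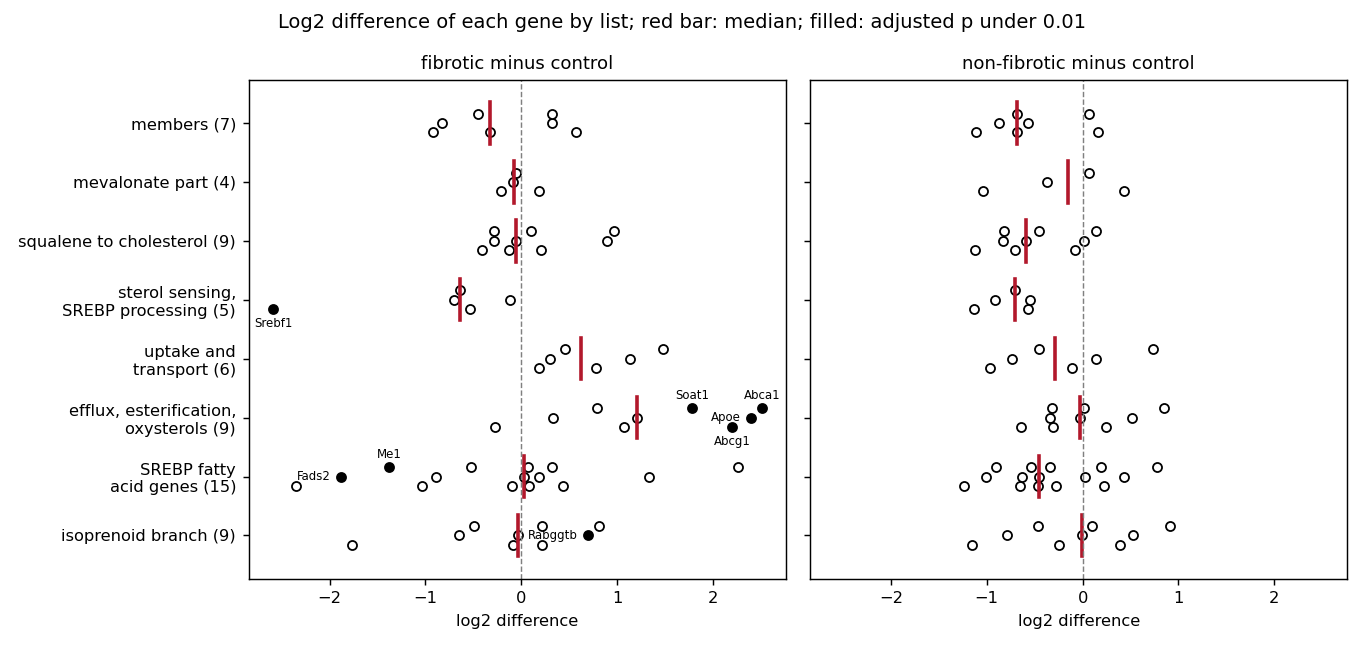
Log2 difference (x axis) of each measured gene of the members and of 7 pathway lists (y axis, number of genes in brackets) for fibrotic minus control and non-fibrotic minus control bronchi; red bars are medians and filled points have an adjusted p under 0.01. Filled points in fibrotic bronchi are 4 export and storage genes on the right, Rabggtb, and Srebf1, Fads2 and Me1 on the left; non-fibrotic bronchi have none.

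Macrophage markers, like the export and storage genes, had higher means in fibrotic bronchi than in controls. A link between them was not tested, and other marker lists also differed between the groups. The summed signal of 10 macrophage markers was 27900 to 49400 in fibrotic, 21000 to 28700 in non-fibrotic and 14000 to 23300 in control bronchi. Of the 10, 5 rose in fibrotic bronchi relative to controls, beside 2.99% of all probe sets called higher. All 10 had positive differences, and Itgam was under background in every non-fibrotic and control array. Lyz2 made up 50.5% to 60.2% of the sum in fibrotic, 74.6% to 93.1% in non-fibrotic and 68.2% to 79.5% in control bronchi. Without Lyz2 the sum was 11100 to 22700 in fibrotic, 1450 to 7290 in non-fibrotic and 2880 to 5680 in control bronchi. In non-fibrotic bronchi 7 of the 10 markers had negative differences from controls, with a median of -0.73 and 0 calls, beside 0.522% of all probe sets. The summed signal of 9 fibroblast and matrix markers was 71300 to 105000 in fibrotic, 36000 to 54400 in non-fibrotic and 29700 to 50900 in control bronchi. That of 7 club cell markers was 6100 to 17800 in fibrotic, 50500 to 85300 in non-fibrotic and 54300 to 107000 in control bronchi, with Scgb3a1 under background in every fibrotic array. The sum of 6 T cell markers was 4330 to 5580 in fibrotic, 640 to 2710 in non-fibrotic and 269 to 5320 in control bronchi. For 9 alveolar type II markers it was 5000 to 52000 in fibrotic, 61200 to 83000 in non-fibrotic and 32500 to 54800 in controls. The summed signal of the 7 members was 9750 to 11400 in fibrotic, 7220 to 9470 in non-fibrotic and 10100 to 12300 in control bronchi. All non-fibrotic sums thus lay under those of the other groups, while fibrotic and control sums overlapped. Probe sets of high signal weigh most in such a sum. The part of tissue composition and of RNA quality in the values of the cholesterol genes was not tested.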

How the data were processed

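Amplified RNA of laser-captured bronchial wall was hybridized to Affymetrix rat expression arrays. The deposited intensity values are MAS5 signals on a linear scale, 1 per probe set and array. The authors made them with the Affymetrix Command Console software, and no version of the MAS5 algorithm itself is given. The values were taken to log2 without a pseudocount, a filter or further normalization. Of 31099 probe sets, 57 array controls were left out and 31042 tested, of which 20826 had 1 gene symbol, 436 several and 9780 none. One model of the 3 groups was fitted in R 4.3.3 with limma 3.58.1 (lmFit, then eBayes allowing the variance to follow mean signal), and p-values are two-sided and adjusted by Benjamini-Hochberg over all probe sets of a contrast. All adjusted p-values in the text come from this fit unless an alternative is named. The fit was tested on simulated data, with independent arrays and the same spread in all 3 groups. That test does not cover rats shared by groups, differing RNA quality or a wider non-fibrotic spread. The background level, a log2 signal of 6.52, is the highest of 36 values of array control probe sets for bacterial tryptophan genes, which the usual spike-in mixes leave out. A fold change against a group under it is a bound, from normalized means with arrays under that level set to it. The number of arrays limits the precision.

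Members and gene lists were chosen with earlier results of these data known, so no list was tested. Named genes were all members, the genes of each pathway list with an adjusted p under 0.01 against controls (at most 4 a list), and the genes of most similar profile. Dhcr7, Lipa and Scd fall outside this rule and were chosen after their values were seen. Genes listed but not paired with a probe set were not analysed here. Alternatives changed the threshold, filter, pseudocount, floor, normalization, variance model, controls, probe set and arrays. Figures were drawn with matplotlib 3.10.9.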

Additional observations from a re-analysis of the deposited data

Results flagged for a closer look

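Control 2 lay far from the other controls for 3 of the 11 probe sets of the members, by Dixon's criterion on the gap to the nearest array over the range of the group. Its log2 signal was 11.68 for Sqle, where the other 5 controls lay between 11.06 and 11.27. It was 9.32 for Fdft1, where the others lay between 9.92 and 9.98, and 7.01 for the second Idi1 probe set, where the others lay between 8.46 and 9.28. Chance marks about 1 in 20 groups in this way, and 11 groups of controls were examined.

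The effects in fibrotic and non-fibrotic bronchi relative to the shared controls differed, by the test of fibrotic against non-fibrotic bronchi, for 1 member and 4 other pathway genes. The log2 difference between the effects was 1.25 for Cyp51 (adjusted p 0.00945), 2.45 for Lipa (adjusted p 0.00686), 2.83 for Abca1 (adjusted p 0.00608), 2.54 for Abcg1 (adjusted p 0.00474) and 1.54 for Soat1 (adjusted p 0.00771), each higher in fibrotic bronchi. All 5 calls were lost without any 1 fibrotic array, and also without non-fibrotic replicate 8. They were lost as well without moderation (adjusted p 0.0172 to 0.0517), without the intensity trend (0.0189 to 0.0445), with array weights (0.0158 to 0.0485) and with only the 2 groups in the fit (0.0138 to 0.055).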

How the results depend on the processing

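No paired analysis was possible because the groups share fewer than 2 replicate numbers and labels do not tie specimens to rats. Between fibrotic and control bronchi, the number of members called was 2 (Srebf2 and Fdft1, both lower) at an adjusted p under 0.05, with array weights or with only the 2 groups in the fit, 1 (Fdft1) with a floor at the background level or with controls 3 to 6 only, and 0 to 1 when single arrays were left out. Between non-fibrotic and control bronchi it was 1 (Srebf2) at an adjusted p under 0.05. Between fibrotic and non-fibrotic bronchi the count was 0 with the floor, quantile normalization, no intensity trend, no moderation, array weights, only the 2 groups, the mean of the probe sets or the second probe set, and 0 to 1 when single arrays were left out.

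The count of all probe sets called between fibrotic and control bronchi was 5541 at the looser threshold, 1760 without moderation, 4863 with array weights, 408 with controls 1 and 2 only and 1718 to 3443 with single arrays left out, against 2914. Between non-fibrotic and control bronchi it was 1811 at the looser threshold, 333 with a pseudocount of 16, 263 with the floor, 282 after quantile normalization, 76 without the intensity trend, 42 without moderation, 2 with controls 1 and 2 only, 1016 with controls 3 to 6 only, 58 with a random block for controls 3 to 6 and 41 to 371 with single arrays left out, against 162. Between fibrotic and non-fibrotic bronchi it was 2970 at the looser threshold, 784 with the floor, 504 without the trend, 386 without moderation, 610 with array weights, 292 with only the 2 groups and 598 to 1921 with single arrays left out, against 1185.

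Differences that turned sign were all uncalled in members. With controls 1 and 2 only, the log2 difference between fibrotic and control bronchi was -0.02 for Idi1 and 0.11 for Insig1, and that between non-fibrotic and control bronchi -0.07 for Sqle and -0.27 for Idi1. With the mean of the probe sets, Idi1 differed by -0.18 (fibrotic minus control), -0.02 (non-fibrotic minus control) and -0.16 (fibrotic minus non-fibrotic), and Srebf2 by 0.27 (fibrotic minus control). With the second probe set, these Idi1 values were -0.69, -0.12 and -0.57, Srebf2 gave 1.38 (fibrotic minus control) and 0.68 (non-fibrotic minus control), and Srebf1, a called gene, gave 0.65 (fibrotic minus control). The random block turned Idi1 to -0.03 (non-fibrotic minus control), and median centring turned Fdft1 to 0.03 (fibrotic minus non-fibrotic). With single arrays left out, the range was -0.19 to 0.15 for Fdft1, -0.01 to 0.49 for Insig1, -0.06 to 0.48 for Idi1 and -0.08 to 0.66 for Srebf2 between fibrotic and non-fibrotic bronchi, and -0.16 to 0.38 for Idi1 and -0.05 to 0.30 for Sqle between non-fibrotic and control bronchi. The cause was not tested. Signal over background limits the second Srebf2 probe set and Srebf1, and 3 arrays a group limit all comparisons.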
